A study of Mus musculus with 12 samples.

Results

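The genes described here carry the vasopressin signal from the V2 receptor to the transcription factor CREB: Avpr2, Gnas, Adcy3, Adcy6, Prkaca, Prkacb, Prkar2a, Creb1, Crtc2 and Pde4d. They are 10 of the 23870 genes in the IgG files, chosen for their place in the pathway and not for their values, though earlier results of these data were known. Each was measured over the longest of its transcript intervals. The cells were mpkCCD clone 11, a transformed line of mouse collecting duct principal cells that is a single clone, at passages 6 to 10. The series has 12 samples in 4 groups of 3: chromatin from cells given 0.1 nM dDAVP or its vehicle, precipitated either with an antibody to RNA polymerase II (its subunit Polr2a) or with a nonspecific IgG. Both treatments ran through the whole culture, including a last day without serum, and cells were harvested at 24 h after serum removal. The 6 Polr2a samples were not analysed here. The IgG libraries, 3 with dDAVP and 3 with vehicle, are the control of the immunoprecipitation: their reads are DNA that came down without a specific antibody, so they measure background over a gene and not its transcription. Principal cell markers could not be checked, because these reads come from DNA and not from RNA.

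Vasopressin sets water reabsorption in the collecting duct. The V2 receptor couples through the G protein Gs to adenylyl cyclases, and the cAMP they make releases the catalytic subunits of protein kinase A from its regulatory subunits. The kinase phosphorylates CREB, coactivators of the CRTC family join CREB at target genes, and phosphodiesterases break cAMP down. dDAVP is an agonist selective for the V2 receptor.

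Base composition differed widely among the genes, and the libraries are set against it below. Over the longest intervals, GC content ran from 38.5% (Creb1) to 54.4% (Avpr2). As examples, the middle 120 bases of 3 intervals are printed, from the GRCm38/mm10 reference and in the direction of the gene, with G and C in capitals. So short a stretch can differ from its whole interval. The Creb1 stretch, chr1:64568616-64568735 on the + strand, lies in an intron and holds 35.0% GC. The Adcy6 stretch, chr15:98598750-98598869 on the - strand, overlaps a coding exon and holds 61.7% GC. The third is the middle of the shortest Gnas interval, chr2:174299271-174299390 on the + strand, is coding sequence and holds 71.7% GC. The whole Creb1 and Adcy6 intervals hold 38.5% and 53.6% GC. The shortest Gnas interval holds 64.0%, against 47.95% for the longest Gnas interval.
Creb1: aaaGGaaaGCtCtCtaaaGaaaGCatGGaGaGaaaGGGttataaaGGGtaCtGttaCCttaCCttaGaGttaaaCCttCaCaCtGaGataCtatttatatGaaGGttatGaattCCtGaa
Adcy6: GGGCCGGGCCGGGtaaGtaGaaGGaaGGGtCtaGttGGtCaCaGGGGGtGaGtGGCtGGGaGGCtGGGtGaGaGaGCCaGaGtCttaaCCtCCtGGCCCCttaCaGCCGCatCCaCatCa
Gnas shortest interval: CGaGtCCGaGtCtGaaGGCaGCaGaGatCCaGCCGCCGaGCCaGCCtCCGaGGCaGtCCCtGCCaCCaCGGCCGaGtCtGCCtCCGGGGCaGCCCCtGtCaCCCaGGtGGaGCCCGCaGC

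The 6 libraries held 10588927 to 19748658 reads over the 33062 intervals they had in common, and 82 to 137 reads on the median gene. dDAVP experiments 1 and 2 differed by close to sampling noise across genes (chi-square over degrees of freedom 1.02), as did vehicle experiments 1 and 2 (1.01), so each pair was counted as 1 sample and each group has n = 2. Vehicle experiment 3 stood apart from both vehicle libraries (5.02 and 5.11), and dDAVP experiment 3 stood much farther from every other library (85.3 to 148). Nothing in the labels says whether the experiments began from different cultures, so every SD and p-value reflects the spread among these libraries, which may be technical. Density below is reads per kb, scaled to the library's reads over 1 interval per gene and divided by the same value of its median gene, and mean ± SD is over the n = 2 samples of a group.

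No gene of the pathway was called different between dDAVP and vehicle. Of the 9 that could be tested, 5 had a higher and 4 a lower density with dDAVP, and 0 passed the quasi-likelihood test of edgeR at a Benjamini-Hochberg adjusted p under 0.05 (adjusted p = 0.619 for each). Over all 30912 intervals tested 0% were called as well. At an unadjusted p under 0.05 edgeR had 0 of the 9 genes and 236 intervals, and DESeq2 called 0 and had 1 of the genes (Adcy6) and 1117 intervals. The size of each ratio depended on dDAVP experiment 3: without that library the log2 ratios of the 9 genes kept their sign but ran only from -0.25 to 0.48. The 5 genes that were denser in that library than in the other dDAVP libraries (Gnas, Adcy3, Adcy6, Prkaca, Crtc2) are the 5 with the higher GC content, and the 4 that were less dense in it (Prkacb, Prkar2a, Creb1, Pde4d) are the 4 with the lower. Without dDAVP experiments 1 and 2, which leaves that library as the only dDAVP sample, assumed to vary as the vehicle samples do, edgeR called all 10 genes and 23054 of 31309 intervals.

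**Figure D1:**
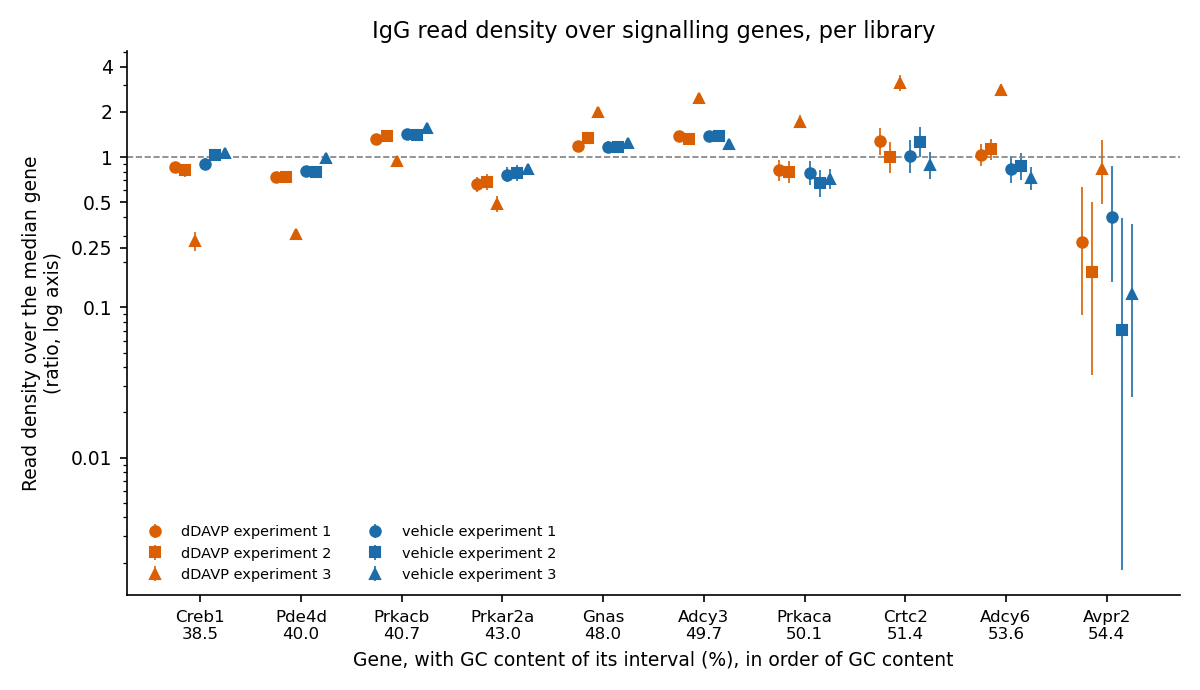
Read density over the median gene (ratio, log axis) of each gene in the 6 IgG libraries, in order of GC content (%), with 1 point per library, 95% Poisson intervals as bars, and orange for dDAVP and blue for vehicle. dDAVP experiment 3 (orange triangles) lies below the other 5 libraries at the low GC end (Creb1 0.276, Pde4d 0.307) and above them at the high end (Crtc2 3.11, Adcy6 2.79).

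Avpr2, the V2 receptor itself, had too few reads to judge. Its interval is chrX:73892102-73894428 on the + strand, only 2.33 kb long with 54.4% GC, and 77 bp of it overlap Arhgap4 on the opposite strand. It held 5, 3 and 18 reads in dDAVP experiments 1, 2 and 3 and 6, 1 and 3 reads in vehicle experiments 1, 2 and 3. The groups overlapped, and the filter on low counts removed the gene. The single read of vehicle experiment 2 has a 95% Poisson interval of 0.0253 to 5.57 reads, and the 18 reads of dDAVP experiment 3 one of 10.7 to 28.4. These and all other such intervals cover counting error only. Density was 0.171 to 0.828 of the median gene with dDAVP and 0.0704 to 0.401 with vehicle. The gene lies on the X chromosome, and over genes of like length on that chromosome its density was 0.181 to 1.09 in the 5 libraries other than dDAVP experiment 3 and 2.60 in that one.

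Gnas encodes the alpha subunit of Gs, the step after the receptor. Its longest interval is chr2:174284320-174346742 on the + strand, 62.4 kb with 47.95% GC, and 11117 bp of it overlap the antisense gene Gnasas1, whose reads cannot be told apart. It held 583, 627 and 1166 reads in dDAVP experiments 1, 2 and 3 and 466, 444 and 822 in the vehicle experiments. In density it was 1.18, 1.34 and 2.00 with dDAVP and 1.16, 1.16 and 1.247 with vehicle. dDAVP experiment 3 was high, and experiment 1 lay inside the vehicle range. The group means were 1.63 ± 0.52 and 1.20 ± 0.0594, and the log2 ratio was 0.45 ± 0.35 (SE; 95% interval -0.42 to 1.33; adjusted p = 0.619, edgeR).

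The Gnas locus makes several transcripts from its own alternative starts: the secretory protein Nesp, the extra-large XLas, the untranslated exon 1A transcript and Gs alpha. Its 6 distinct intervals cut it into 6 pieces, and dDAVP experiment 3 differed from the others by piece. The XLas exon, chr2:174297859-174300802, is 2.94 kb long with 64.0% GC. It held 25, 34 and 145 reads with dDAVP and 26, 20 and 24 with vehicle, a density 4.04 times as high in dDAVP experiment 3 as in the mean of the other dDAVP libraries. The piece from exon 1A to the Gs alpha start, 2.17 kb and also 64.0% GC, held 10, 13 and 64 reads with dDAVP and 8, 4 and 14 with vehicle, for a ratio of 4.58. Those pieces are short and thin in reads outside dDAVP experiment 3. The piece from the Nesp start to the XLas start (50.0% GC) had a ratio of 2.26, and the 27.1 kb between the XLas exon and exon 1A (44.1% GC) had one of 0.968. The Gs alpha unit split into a first part with a ratio of 0.826 and a last part with one of 1.55, at nearly the same GC content (47.5% and 47.8%). By choice of interval, the log2 ratio of Gnas ran from 0.26 (the 48.9 kb interval) to 1.70 (the XLas exon). A read across a boundary is counted in both intervals, so a piece found by difference can be off by a few reads.

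**Figure D2:**
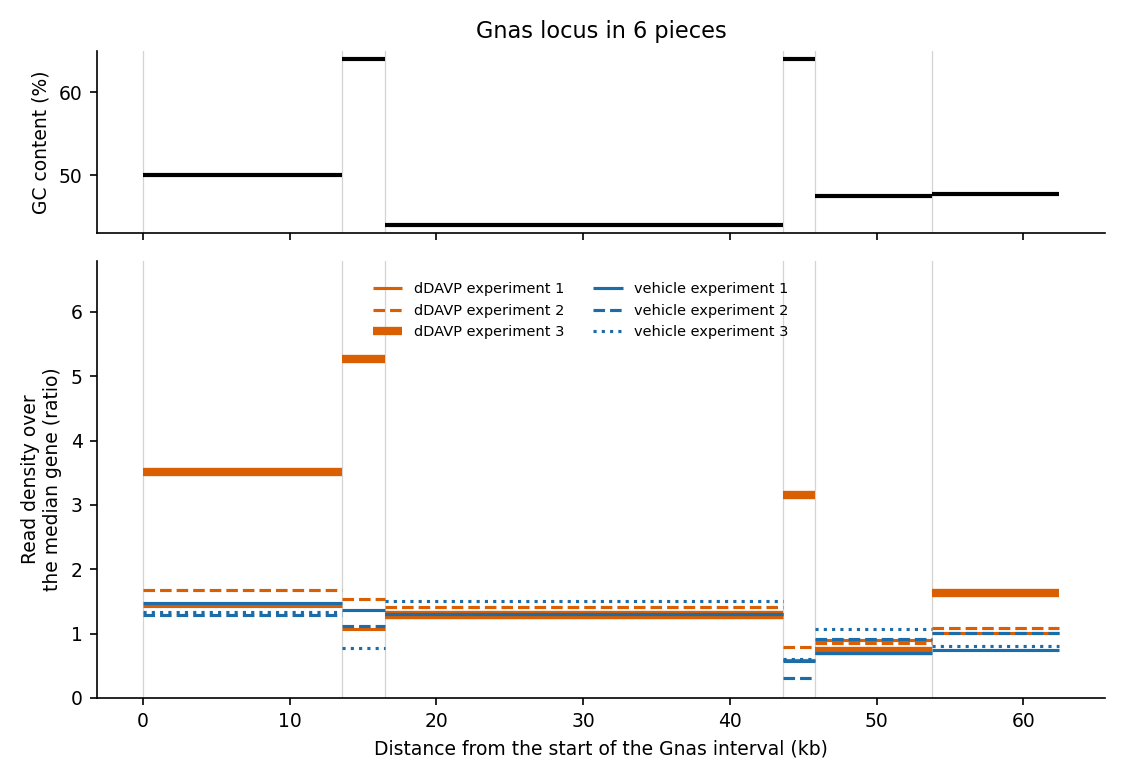
GC content (%, upper panel) and read density over the median gene (ratio, lower panel) of the 6 Gnas pieces against distance from the start of the interval (kb), with 1 line per library and dDAVP experiment 3 the thickest. It stands above the other libraries in the 2 pieces of 64.0% GC (5.27 and 3.15) and in those of 50.0% (3.51) and 47.8% GC (1.63). In the pieces of 44.1% (1.29) and 47.5% GC (0.723) it lies among them.

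The adenylyl cyclases were both denser in dDAVP experiment 3 than elsewhere, Adcy6 by more. Adcy3, chr12:4133397-4213524 on the + strand (80.1 kb, 49.7% GC, 1853 bp shared with Cenpo on the opposite strand), held 875, 790 and 1854 reads with dDAVP and 715, 679 and 1038 with vehicle. Its density was 1.38, 1.31 and 2.48 with dDAVP and 1.39, 1.39 and 1.23 with vehicle. Only dDAVP experiment 3 was high, and the other dDAVP libraries lay inside the vehicle range. The log2 ratio was 0.56 ± 0.40. It was -0.05 with a GC offset and -0.02 with experiments 1 and 2 alone.

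Adcy6 is a cyclase that calcium inhibits. Its interval, chr15:98589986-98607633 on the - strand, has 17.6 kb and 53.6% GC, the highest among the 9 genes tested. It held 145, 150 and 460 reads with dDAVP and 95, 94 and 135 with vehicle, and its density was 1.04, 1.13 and 2.79 against 0.837, 0.872 and 0.724. All dDAVP libraries lay above all vehicle libraries, and dDAVP experiment 3 stood far above the rest. The Poisson intervals of the nearest pair, 1.04 (145 reads) and 0.872 (94 reads), overlap. The group means were 1.94 ± 1.21 and 0.789 ± 0.0922. Its log2 ratio, 1.31 ± 0.53 (95% interval -0.0034 to 2.61), was the farthest from 0 among the 9, with an unadjusted p of 0.0504 and an adjusted p of 0.619 in edgeR. Without dDAVP experiment 3 it was 0.48, and with the GC offset 0.27.

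Protein kinase A is a complex of catalytic and regulatory subunits, and the ratios of its genes had both signs, none of them called. Prkaca, the catalytic subunit alpha, covers chr8:83972978-83996442 on the + strand (23.5 kb, 50.1% GC). It held 152, 141 and 378 reads with dDAVP and 119, 96 and 177 with vehicle. Its density was 0.820, 0.799 and 1.73 against 0.789, 0.670 and 0.714. All dDAVP libraries lay above all vehicle libraries, but 0.799 and 0.789 differ by less than counting error (Poisson intervals 0.673 to 0.942 and 0.653 to 0.944). The log2 ratio was 0.82 ± 0.46, and 0.19 without dDAVP experiment 3.

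Prkacb, the catalytic subunit beta, covers chr3:146729579-146812946 on the - strand (83.4 kb, 40.7% GC). It held 868, 870 and 731 reads with dDAVP and 763, 716 and 1385 with vehicle, and its density was 1.32, 1.39 and 0.939 against 1.42, 1.41 and 1.57. The dDAVP libraries lay below the vehicle ones, experiments 1 and 2 narrowly, and the log2 ratio was -0.36 ± 0.34. With the GC offset the ratio was 0.36, above 0. Against 2685 genes with GC content within 1 point of its own, whose median log2 ratio was -0.58, it stood above 85.7%. Its 4 nested intervals share the 3′ end, and the shortest, 40.7 kb with 41.2% GC, kept 0.866 of its density in dDAVP experiment 3. The 31.5 kb at the 5′ end, with 41.0% GC, kept 0.510.

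Prkar2a encodes the regulatory subunit type II alpha, which anchoring proteins tether near membranes. Its interval, chr9:108692143-108749511 on the + strand (57.4 kb, 43.0% GC), held 298, 295 and 263 reads with dDAVP and 282, 274 and 503 with vehicle. Density was 0.658, 0.684 and 0.491 against 0.764, 0.782 and 0.830. Every dDAVP library was below every vehicle library, though the Poisson intervals of the nearest pair, 0.684 and 0.764, overlap. The log2 ratio was -0.44 ± 0.34. It was the least dense gene of the 9 on average.

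The transcription factor and its coactivator had ratios of opposite sign, neither of them called. Creb1 covers chr1:64532804-64604548 on the + strand (71.7 kb) and has the lowest GC content of the 10 genes, 38.5%. It held 484, 440 and 185 reads with dDAVP and 415, 452 and 809 with vehicle, and its density was 0.854, 0.816 and 0.276 against 0.899, 1.03 and 1.07. The dDAVP libraries were all below the vehicle ones, though the Poisson intervals of the nearest pair, 0.854 and 0.899, overlap. In dDAVP experiment 3 the density was 0.331 of that of the other dDAVP libraries. The log2 ratio was -0.84 ± 0.56, -0.25 without that library and -0.09 with the GC offset.

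Crtc2, which enters the nucleus and binds CREB once dephosphorylated, covers chr3:90254281-90264125 on the + strand (9.85 kb, 51.4% GC). It held 99, 74 and 286 reads with dDAVP and 64, 76 and 92 with vehicle. Density was 1.27, 1.00 and 3.11 against 1.01, 1.26 and 0.885, so the groups overlapped and only dDAVP experiment 3 was high. Its log2 ratio of 1.08 ± 0.57 was 0.20 without that library. Experiments 1 and 2 taken as a mean of densities differed by -0.0012 on the log2 scale.

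Pde4d encodes a cAMP phosphodiesterase and is by far the longest of the genes, chr13:108654177-109955969 on the + strand (1302 kb, 39.98% GC). Mir582 and Mir1904 lie inside it on the same strand. It held 7634, 7248 and 3728 reads with dDAVP and 6772, 6368 and 13589 with vehicle, the most of any of the 10. Density was 0.743, 0.740 and 0.307 against 0.809, 0.801 and 0.988. Every dDAVP library lay below every vehicle library, and dDAVP experiment 3 was lowest. Its log2 ratio was -0.75 ± 0.57, and -0.24 without that library. In experiments 1 and 2 alone, taken as separate libraries, edgeR called it lower at a log2 ratio of only -0.10 (adjusted p = 5.4e-04), together with 1321 of 29574 intervals. Those libraries differ within a group by little more than sampling noise, so that p measures counting error.

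Counting the libraries rather than fitting them, 2 of the 9 genes (Adcy6, Prkaca) had all dDAVP libraries above all vehicle libraries, as had 11.7% of the 22156 genes tested. Another 4 (Prkacb, Prkar2a, Creb1, Pde4d) had all of them below, as had 16.9% of genes. Set over genes of their chromosome with GC content within 2 points, 1 of the 9 lay above (Adcy6, against 7.06% of genes) and 1 below (Pde4d, against 5.80%). Adcy6 then ran 0.908, 0.963 and 0.967 with dDAVP and 0.7995, 0.812 and 0.821 with vehicle, a gap far smaller than before, and its level in dDAVP experiment 3 was no longer apart from the other dDAVP libraries. Those values rest on the same read counts and carry the same counting error.

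**Figure D3:**
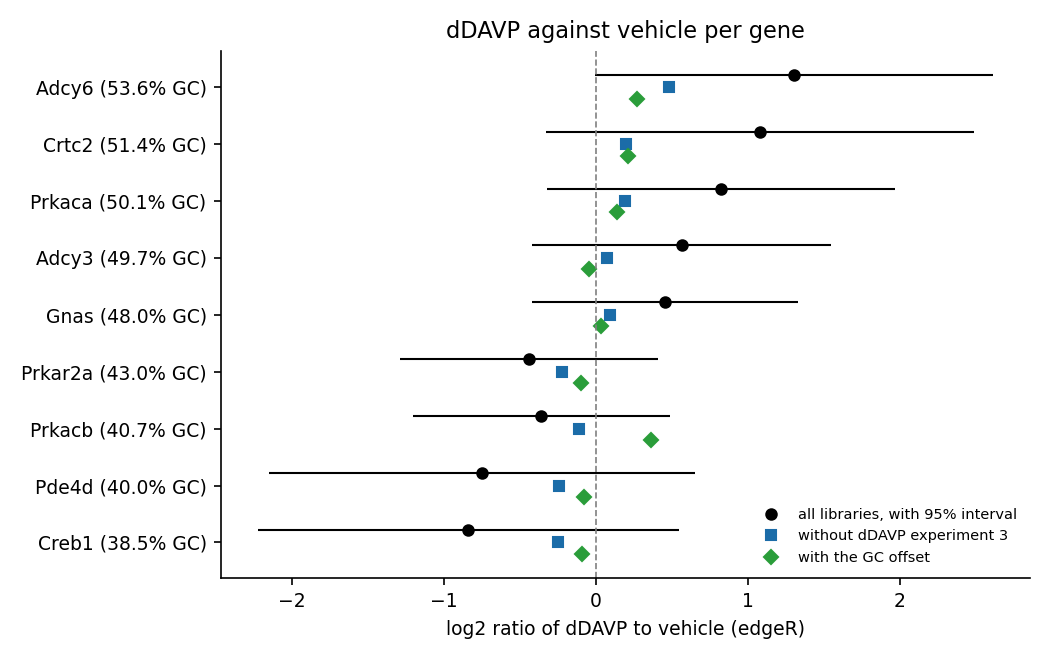
Log2 ratio of dDAVP to vehicle from edgeR for the 9 genes tested, in order of GC content, with all libraries (black, 95% interval as bar), without dDAVP experiment 3 (blue) and with the GC offset (green). Every bar includes 0, from Adcy6 (1.31) to Creb1 (-0.84), and the blue points lie nearer 0 on the same side, while the green ones of Prkacb (0.36) and Adcy3 (-0.05) lie on the other side.

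The shift between dDAVP experiment 3 and the mean of the other dDAVP libraries ordered the genes almost exactly by GC content. It was 0.331 for Creb1, 0.414 for Pde4d, 0.694 for Prkacb and 0.732 for Prkar2a, all with GC content of 43.0% or less. It was 1.59 for Gnas, 1.84 for Adcy3, 2.13 for Prkaca, 2.57 for Adcy6 and 2.74 for Crtc2, and 3.73 for Avpr2 on very few reads. Spearman's rho with GC content was 0.988 over the 10 genes and 0.930 over 17111 genes with at least 20 reads in every library, given as descriptions across genes of the same libraries. Those 17111 genes showed the same run of values, from a median of 0.306 below 38% GC to 2.84 above 54%. Of the 10 genes, 4 lay above the middle 50% of their GC class: Prkacb (0.395 to 0.618), Gnas (1.103 to 1.51), Crtc2 (1.82 to 2.32) and Avpr2 (2.52 to 3.17). Gnas, at 47.95% GC, lies at the upper edge of its class (46 to 48%, median 46.97%). Among genes within 1 point of its GC content, its log2 ratio in the fit (0.45) lay inside the middle 50% (0.22 to 0.53). Avpr2 has very few reads, while the classes hold only genes with at least 20 reads in every library. In the fit, genes of like GC content (within 1 point) had median log2 ratios in nearly the same order as the 9 genes, from 1.06 at the GC content of Adcy6 to -0.76 at that of Creb1. In experiments 1 and 2 the log2 difference between dDAVP and vehicle densities ran only from -0.21 (Creb1) to 0.34 (Adcy6), and in experiment 3 from -1.95 (Creb1) to 1.95 (Adcy6). With the GC offset the log2 ratios of the 9 genes in edgeR ran from -0.10 (Prkar2a) to 0.36 (Prkacb), and again 0 were called.

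**Figure D4:**
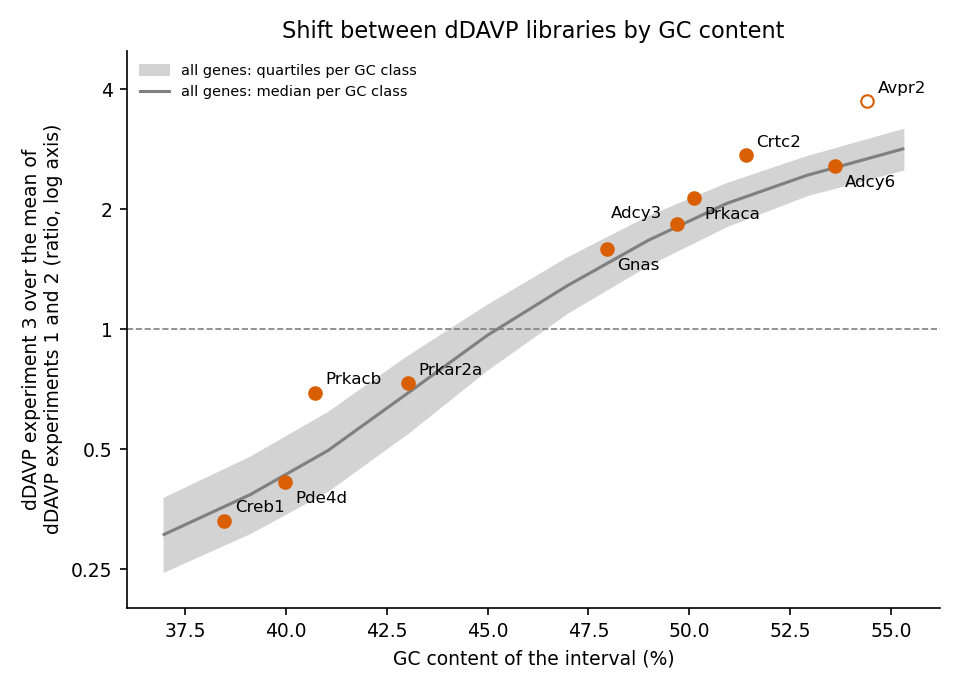
Density in dDAVP experiment 3 over the mean of dDAVP experiments 1 and 2 (ratio, log axis) against GC content of the interval (%). There is 1 point per gene, with Avpr2 open for its few reads. Line and band are the median and quartiles of genes with at least 20 reads in every library. The points run from Creb1 (0.331 at 38.5% GC) to Avpr2 (3.73 at 54.4%), with Prkacb (0.694), Crtc2 (2.74) and Avpr2 above the band.

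The order of mean density was Adcy3 (1.61), Crtc2 (1.57), Gnas (1.42), Adcy6 (1.36), Prkacb (1.32), Prkaca (0.995), Creb1 (0.786), Pde4d (0.710) and Prkar2a (0.691). The means of the first 4 are raised by dDAVP experiment 3: Prkacb, which comes after them, was the densest of the 9 in 4 of 6 libraries. Neighbours in that order were not separated in every library. Adcy3 was above Crtc2, Gnas above Adcy6, Prkacb above Prkaca, Creb1 above Pde4d and Pde4d above Prkar2a in 5 of 6 libraries each. Crtc2 was above Gnas in 3 of 6, and Adcy6 above Prkacb and Prkaca above Creb1 in 1 of 6, that one being dDAVP experiment 3.

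Against genes of 0.5 to 2 times their length on the same chromosome, the median of the 10 genes was below 1 in the 5 libraries other than dDAVP experiment 3 (0.772 to 0.894) and 1.40 in that one. Over the 4 samples it was 0.969 (SD 0.287). With vehicle, Prkaca was 0.648 to 0.767 of the median of its 434 like-length genes and Adcy6 0.685 to 0.721 of that of its 308. Each was near the low end of such genes, and both were above 1 only in dDAVP experiment 3. Prkacb was closest to the median of its 235 like-length genes, at 0.992 to 1.09 in every library. Gnas stood above the median of its 438 like-length genes in every library (1.11 to 2.38), and Prkar2a below that of its 351 (0.633 to 0.883). By library, Gnas was denser than 68.7 to 92.7% of its like-length genes. Pde4d has a single gene of like length on chromosome 13, Sugct (837 kb), so that ratio (0.648 to 0.721) rests on 1 gene. Over the 106 autosomal genes of like length its density was 0.600 to 0.701, above only 0.943 to 17.9% of them. Over the median of genes that lie at least partly within 1 Mb, Gnas was 0.880 to 1.09 and Prkaca 0.827 to 0.973, so neither stood far from its neighbours. The other genes tested had wider ranges. These were Prkar2a (0.484 to 1.37), Creb1 (0.475 to 1.00), Adcy3 (0.849 to 1.68), Crtc2 (0.844 to 1.45), Pde4d (0.620 to 1.20), Adcy6 (0.720 to 1.18) and Prkacb (0.714 to 1.03).

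The share of bases with at least 1 read gave another view of the same libraries. For Creb1 it was 27.5, 24.99 and 6.29% with dDAVP and 19.1, 20.6 and 41.1% with vehicle, and for Adcy6 33.7, 33.9 and 50.9% against 17.2, 17.5 and 28.8%. Creb1 was lowest and Adcy6 highest in dDAVP experiment 3, as in density. The same number of reads of 50 bp, placed at random with an equal chance at every position, would have covered more in most cases. Such random placement, in which reads may overlap, is called even here. For the 9 genes tested the observed share was 0.928 to 1.01 of the even share in dDAVP experiments 1 and 2, 0.683 to 0.878 in vehicle experiments 1 and 2, 0.907 to 0.981 in vehicle experiment 3 and 0.441 to 0.699 in dDAVP experiment 3. The least even was Prkacb, where dDAVP experiment 3 covered 15.6% of bases against 35.5% for even placement. Gnas had nearly the same coverage in all dDAVP libraries (35.3, 36.9 and 35.0%) although the third held the most reads, 1166. Whether repeated reads were removed is not given in the sources used here, and the part of this difference in the densities was not tested.

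**Figure D5:**
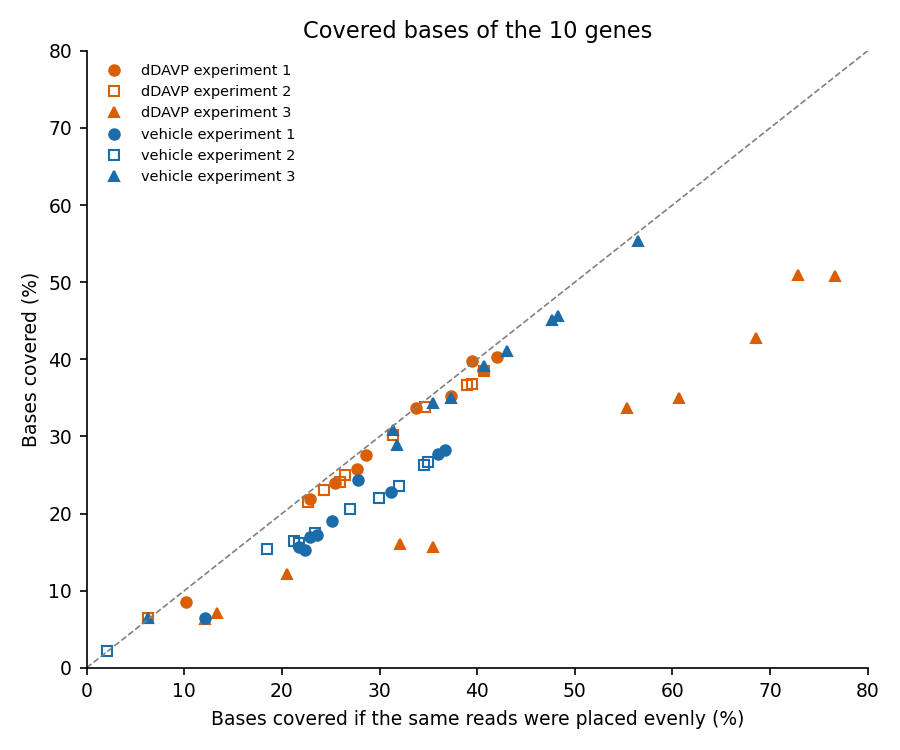
Share of bases with at least 1 read (%) against the share that even placement of the same reads would give (%), with 1 point per gene and library for all 10 genes. Even means at random with an equal chance at every position, and the dashed line marks where the shares are equal. dDAVP experiment 3 lies farthest below the line (0.441 to 0.699 of the even share for the 9 genes tested), and vehicle experiments 1 and 2 lie below dDAVP experiments 1 and 2.

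The other genes of the pathway, a list of 69 in 8 roles of which 68 matched an interval, also held 0 calls. In edgeR 28 were higher and 40 lower with dDAVP and 0 had an unadjusted p under 0.05, with a median log2 ratio of -0.23 and a median GC content of 43.95%. The 9 genes tested above had a median log2 ratio of 0.45, of the opposite sign, and a median GC content of 47.95%. The difference was not tested. Over all 22156 genes tested, 11209 were higher and 10947 lower, 0 were called and 157 had an unadjusted p under 0.05, with a median of 0.01 and a GC content of 45.4%. Among G proteins 2 of 9 were higher, among phosphodiesterases 5 of 13 and among A-kinase anchors 4 of 10. Adenylyl cyclases had 4 of 8 higher, and receptors and their regulators 5 of 7. For subunits and inhibitors of protein kinase A it was 2 of 6, and for other cAMP effectors 1 of 4. The CREB family, coactivators and salt-inducible kinases had 5 of 11 higher. These counts, and the 28 and 40, include genes with under 20 reads in a library, too few to judge. Those were Gnb2 (8 reads at the lowest), Creb3 (14) and Avpr1a (19), counted as higher, and Gng5 (17), counted as lower. The smallest p-values were those of Rapgef3, a cAMP-activated exchange factor with 53.6% GC (log2 ratio 1.26 ± 0.52), and Adcy7, a cyclase with 51.9% GC (1.07 ± 0.47). Rapgef3 was 1.04, 1.21 and 2.90 with dDAVP and 0.801, 0.994 and 0.794 with vehicle, so dDAVP experiment 3 was again the high one. The densest were Adcy5 (1.78), the anchor Akap5 (1.74) and the anchor Akap6 (1.61), and the least dense Gnb1 (0.517), the CREB relative Crem (0.594) and the anchor Akap13 (0.600).

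For each gene, the gene with the most similar density over the 6 libraries was sought among 9613 to 9615 with at least 100 reads in every library. Creb1 was most like Atf2, another factor of the CREB and ATF family, at a root mean square difference of 1.03-fold. As the closest of 9614 genes on these same values, that match is no test of a shared family. Adcy6 was most like Kcnk3, Gnas like Sars, Adcy3 like Stn1, Prkaca like Slc43a2, Prkacb like Armc1, Prkar2a like Myo6 and Pde4d like B230209E15Rik, all within 1.04-fold, and Crtc2 like Ttll12 at 1.08-fold. In GC content each pair differed by 0.00851 to 4.17 percentage points.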

How the data were processed

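Chromatin of mpkCCD cells was cross-linked and sheared, and BWA placed the 50-bp reads on mm10, per the labels' protocols. SAMtools and bedtools are also named in the submitters' processing notes, without versions. The deposited count of an interval is the number of reads over the whole span of a RefSeq transcript, introns included and without strand, and the deposited fraction is the share of its bases with at least 1 read, per the file headers. No normalization, and no removal of duplicates or mapping quality filter, is stated in the sources used here. The labels' protocol text for the IgG samples names the Polr2a antibody as well, and the antibody label was followed.

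The members and gene lists were chosen with earlier results of these data known. All 10 members are named. Others are named by rule: the 3 densest and 3 least dense of the pathway list with at least 20 reads in every library, the 2 with the smallest p, and each member's most alike gene. Genes of the pathway list with under 20 reads in a library are named as well. Symbols came from RefSeq and the GENCODE vM21 tables for 32763 of 33062 common intervals (99.1%), and GC content from GRCm38. Counts of experiments 1 and 2 of each group were summed, since chi-square over degrees of freedom was under 1.1. The fit used edgeR 4.0.16 (TMM, filterByExpr, two-sided quasi-likelihood test, Benjamini-Hochberg at 0.05), with DESeq2 1.42.0 as an alternative, in R 4.3.3. A gene had too few reads when it failed the filter or held under 20 in any library. The GC offset was each library's running median of log2 density in 50 GC classes of genes of at least 2 kb. The smallest exact two-sided permutation p of 2 against 2 samples is 0.333, so densities have no test of their own.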

Additional observations from a re-analysis of the deposited data

How the results depend on the processing

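Of 171 alternative values of the log2 ratios, 156 kept their direction and side of the threshold, 10 kept their direction and passed it, and 5 changed sign. The 171 values include the lowest and highest ratio over the deposited intervals of each gene, which were compared by direction only. For Adcy6, Prkar2a, Creb1, Crtc2 and Pde4d, with 1 distinct interval each, both equal the main value and could not change. For Adcy3 and Prkaca the highest equals it, and for Prkacb the lowest. Adcy3 was -0.0473 with the GC offset, -0.0474 with the GC offset and the replicate block, and -0.0190 with experiments 1 and 2 alone. Prkacb was 0.36 with the GC offset and 0.34 with the offset and the block. The called intervals numbered 1321 with experiments 1 and 2 alone, with 1 of the pathway genes (Pde4d), and 23054, with 10 of them, without dDAVP experiments 1 and 2 together, an alternative chosen after seeing the data. In the other settings, including another scaling, DESeq2, no filter, 6 separate libraries, the GC offset and each library left out in turn (0 called in each), 0 were called. Leaving out 1 library moved the log2 ratio most for Adcy6 (0.48 to 1.35) and Crtc2 (0.20 to 1.20), in both cases lowest without dDAVP experiment 3.

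The deviations of same-numbered libraries from their group means had correlations of -0.37, -0.39 and -0.59 over 17150 genes. Because experiments 1 and 2 of each group are alike, these values mostly reflect how each experiment 3 differs from them. They therefore cannot show whether the numbers pair the samples, and fits with and without a replicate block are given. With a replicate block 0 intervals were called and 210 had an unadjusted p under 0.05, against 292 with 6 separate libraries and the block. The median over members of density against like-length genes (0.969) ran from 0.827 to 1.04 when 1 library was left out, and from 0.891 to 1.02 over the other choices of comparison genes. The narrower length window left Pde4d without a comparison gene. Avpr2 is limited by depth, at 1 to 18 reads.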
